A study of Mus musculus with 6 samples.

Results

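Untreated Rad21-/- macrophages were split by a single transcript. Ighm encodes the constant region of the immunoglobulin mu heavy chain, a B cell product, and a cell was called Ighm-positive with at least 1 UMI of Ighm and Ighm-negative with 0. The classes were therefore chosen by measured values, and the Ighm level of either class is a description. Of the 267 untreated Rad21-/- cells with at most 25000 unique molecular identifiers (UMIs, one per captured transcript), 138 were positive and 129 were negative. A further 3 untreated Rad21-/- wells over the limit were set aside, and the other 5 samples held 1092 macrophages. Single bone marrow-derived macrophages had been sorted into wells and profiled by MARS-seq, which counts UMIs near the 3′ ends of transcripts. All 6 samples came from mice of a mixed C57BL/6 and 129 background with an ERt2Cre transgene at Rosa26 on both alleles, either wild-type or lox/lox at Rad21. All were differentiated in L929-conditioned medium, received 200 nM 4-hydroxytamoxifen at 96 h, controls included, and were used on day 7, untreated or after 2 h or 8 h of lipopolysaccharide (LPS) at 10 ng/ml. Each genotype and time point is 1 sample, so both classes come from the same sample and no test across samples could be made. Every interval given covers counting error at the 95% level only, apart from those of median UMIs, which come from the ranked cells.

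In B cells the Ighm constant region is transcribed as part of a rearranged heavy chain gene, under enhancers that lie in the heavy chain locus and bind factors of the E2A, PU.1 and Oct families, and the protein forms the membrane and secreted IgM. The same locus also gives unrearranged, non-coding "germline" transcripts across the mu constant region, which have been found in cells that make no antibody. Macrophages are myeloid cells, known by the receptor Csf1r, the lysosomal protein Cd68, lysozyme and cathepsins. RAD21 is a subunit of cohesin, the ring complex that extrudes chromatin loops and holds sister chromatids together. Ighm lies on chromosome 12 at 113418826 to 113422730 in GRCm38, annotated as a constant region segment of 3905 bases. No other immunoglobulin heavy or light chain segment is in the matrix used here.

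Rad21 itself was low in the cells under study. The untreated Rad21-/- cells held 9 Rad21 UMIs in 7 cells (5.46 CPM, counts scaled to a common total of UMIs), against 93 UMIs in 61 wild-type untreated cells (64.4 CPM). In the LPS samples Rad21 lay at 8.01 and 6.92 CPM in Rad21-/- cells and at 50.9 and 34.1 CPM in wild-type cells, in order of time. Median UMIs per cell ranged from 5544 to 7043 over the 6 samples. Among the 8 library pools of the untreated cells, each holding cells of both genotypes, pool 2325AA stood apart with a median of 3584 UMIs per Rad21-/- cell and 4 positive cells of 22. No 2 cells had identical counts, and well barcodes recurred between pools (97 of 109) but never within one.

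Ighm was found in 51.7% of the untreated Rad21-/- cells (exact binomial interval 45.5 to 57.8%), mostly at 1 or 2 UMIs. Of the positive cells, 63 held 1 Ighm UMI, 39 held 2, 15 held 3, 9 held 4, 7 held 5 and 5 held more, up to 8. The 63 cells just inside the limit and the 129 just outside it thus differ by a single captured molecule. When each cell was thinned to 3600 UMIs, Ighm included, 42.5% of 233 cells were positive (36.1 to 49.1%), with 0.648 Ighm UMIs per cell. Over these cells the variance of the Ighm count was 1.30 times its mean, while 1398 genes with a mean within 2-fold had a median of 1.12, and 14.7% of them had a larger value than Ighm. The spread of Ighm between cells was therefore above the middle of genes of like level without lying outside their range.

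**Figure D1:**
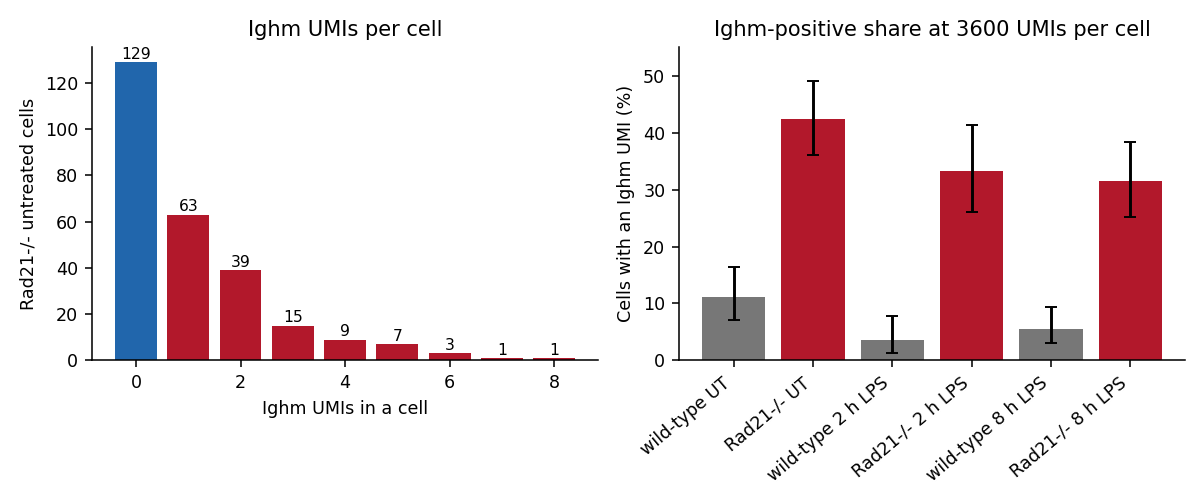
Left, number of untreated Rad21-/- cells (y axis) by the number of Ighm UMIs in the cell (x axis), with negative cells in blue and positive cells in red. Right, percent of cells with an Ighm UMI after thinning to 3600 UMIs per cell in each of the 6 samples (UT, untreated; red, Rad21-/-; grey, wild-type), with exact 95% binomial intervals. The 3 Rad21-/- samples lie between 31.5% and 42.5% and the 3 wild-type samples between 3.64% and 11.1%.

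The Ighm-positive share was higher in Rad21-/- than in wild-type cells at each time point. At 3600 UMIs per cell it was 11.1% of wild-type untreated cells (7.10 to 16.3%). After LPS the wild-type share was 3.64% at 2 h (1.35 to 7.75%), while at 8 h it was 5.58% (3.0 to 9.35%). The Rad21-/- share was 33.3% at 2 h, with an interval of 26.0 to 41.3%, and 31.5% at 8 h, with one of 25.3 to 38.4%. Without thinning, 17.2% of wild-type untreated cells were positive, with at most 5 UMIs in a cell. The higher share in untreated Rad21-/- cells held in 8 of 8 pools, from 18.2% to 64.3% of Rad21-/- cells against 0% to 34.0% of wild-type cells. The genotype and the sample cannot be told apart here, since each genotype is 1 sample per time point.

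The median depth was higher in positive cells, at 5988 UMIs without Ighm (5539 to 6471) against 5064 (4558 to 5623) in negative cells. The ratio of 1.18 had an interval of 0.985 to 1.42, which includes 1. All comparisons of other genes were therefore made after Ighm was removed and each remaining cell was thinned to 3600 UMIs, the largest multiple of 100 that kept 80% of both classes. This kept 128 positive and 105 negative cells. At that depth the classes were alike in quality: a median of 1864 genes was detected in positive and 1885 in negative cells, mitochondrial genes took a median of 6.83% of UMIs in both, and ribosomal protein genes took 5.01% and 4.86%.

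B lineage genes were not higher in positive cells. Of 32 B lineage genes listed, 10 were in the matrix, and the other 22 were not analysed here. Together the 10 had 128 UMIs in positive and 137 in negative cells, or 1.00 and 1.30 per cell, a log2 ratio of -0.38 (-0.74 to -0.03). The size of this value belongs to 1 draw, since another random seed gave -0.11 and all UMIs without thinning gave -0.13. None of the 10 reached 100 UMIs over both classes, the minimum at which single genes were compared, and 3 were higher and 7 lower in level.

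Most of the B lineage UMIs came from Blnk and Cr2. Blnk, an adaptor of B cell receptor signalling that myeloid cells also use, had 44 UMIs in positive and 42 in negative cells. Cr2, a complement receptor, had 36 and 46. Fcrla, an Fc receptor-like protein, had 17 and 14, and Cd72, a B cell co-receptor, had 15 and 12. The remaining genes were close to 0 in both classes. Pax5, the factor that commits cells to the B lineage, had 4 and 3 UMIs, and Ebf1, which acts before it, had 4 and 6. Ms4a1, which encodes CD20, had 2 and 3, Cd22 had 4 and 3, Bank1 had 1 and 5, and Dntt, the polymerase that adds bases during rearrangement, had 1 and 3. Before thinning, 12 of 138 positive cells (8.70%, 4.57 to 14.7%) and 10 of 129 negative cells (7.75%, 3.78 to 13.8%) held at least 2 of the 7 genes Ms4a1, Cd22, Pax5, Ebf1, Bank1, Fcrla and Dntt. At equal depth these 7 genes had 33 and 37 UMIs, of which Fcrla gave 17 and 14. The plasma cell list had 57 and 44 UMIs, a log2 ratio of 0.09 (-0.51 to 0.69), with Xbp1, a factor of the secretory programme, at 47 and 31 and Prdm1, which drives plasma cell differentiation, at 10 and 13.

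Factors known to act on heavy chain enhancers were, as a list, at like levels in both classes. Over 20 such genes in the matrix the log2 ratio was 0.04 (-0.14 to 0.22). Spi1, which encodes PU.1, had 0.906 UMIs per positive and 0.838 per negative cell, Tcf4, an E protein, had 0.875 and 0.829, and Runx1 had 0.297 and 0.276. Cebpb, a C/EBP factor of myeloid cells that is also on the macrophage list, was lower at 20 and 30 UMIs, log2 -0.87 (-1.76 to -0.0067), under the minimum for single genes. Genes that neighbour the heavy chain locus on chromosome 12 showed no shared shift either, with a log2 ratio of -0.02 (-0.22 to 0.19) over 14 genes. Among them Crip1, a LIM domain protein, was at 1.34 and 1.40 UMIs per cell, Pld4, a phospholipase D family member, at 0.938 and 0.981, and Ptprn2 at 0.430 and 0.390. Receptors and adaptors that bind immunoglobulin through its Fc part were also level, at -0.01 (-0.11 to 0.09), with Fcer1g at 11.5 and 11.7 UMIs per cell, Fcgr3 at 2.05 and 2.04 and Fcgr1 at 0.5 and 0.362.

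Positive cells were macrophages by the same markers as negative cells. Before thinning, Cd68, Tyrobp, Fcer1g, Ctsb, Ctsd, Ftl1 and Lyz2 were found in 138 of 138 positive cells. In negative cells these genes were found in 129 of 129, except Tyrobp in 128 and Lyz2 in 126. Csf1r was found in 86.2% of positive and 77.5% of negative cells, and the macrophage marker Adgre1 in 63.8% and 52.7%, shares that rise with depth. At equal depth Lyz2 was found in 96.9% of positive and 100% of negative cells. The 34 macrophage genes summed at that depth to 178 UMIs per positive and 186 per negative cell, a log2 ratio of -0.07 (-0.09 to -0.04). That small deficit had the same sign within 7 of 7 pools that held at least 5 thinned cells of each class. It shrank to -0.02 when all UMIs were used without thinning. The most abundant members, Ftl1 of the iron store ferritin (36.4 and 37.4 UMIs per cell) and the lysosomal proteases Ctsb (24.8 and 26.1) and Ctsd (21.3 and 22.2), were each within 0.08 on the log2 scale.

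The macrophage deficit was uneven over the list, and 2 genes led it. Of the 28 members with at least 100 UMIs, 15 had a ratio above 1 and 13 below, their median log2 ratio was 0.00 against 0.02 over all 1191 genes compared, and the range ran from -0.40 to 0.47. At the low end, Lgals3, the secreted lectin galectin-3, was at 7.64 UMIs per positive cell and 10.1 per negative cell, a log2 ratio of -0.40 (-0.53 to -0.28). Per cell its median was 6 UMIs (quartiles 3 and 10.2) in positive and 8 (5 and 13) in negative cells, so the classes overlapped widely.

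Gpnmb, a lysosomal membrane glycoprotein, was at 6.08 and 8.04 UMIs per cell, a log2 ratio of -0.40 (-0.55 to -0.26), with medians of 5 and 7 UMIs. Both genes were lower in positive cells in 7 of 7 pools, from -1.24 to -0.03 for Lgals3 and from -1.14 to -0.02 for Gpnmb. The lower level was already present at 1 Ighm UMI: Gpnmb was at 8.04 UMIs per cell without Ighm, 5.93 with 1 Ighm UMI, 6.35 with 2 and 6.03 with 3 or more, and Lgals3 at 10.1, 7.91, 7.43 and 7.44. Both transcripts were more abundant in wild-type untreated cells, with 18.5 Lgals3 and 9.40 Gpnmb UMIs per cell at the same depth. Other members differed less, such as Lyz2, lysozyme (11.3 and 12.3 UMIs per cell, log2 -0.12, -0.23 to -0.02), and Ctsl, a cathepsin (2.98 and 3.55, log2 -0.25, -0.46 to -0.04). Lgals3 and Gpnmb were singled out after their values were seen.

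Across all genes the classes were close to each other. Of 1191 genes with at least 100 thinned UMIs over both classes, 1153 (96.8%) lay within 1.5-fold, and 90% of the log2 ratios lay between -0.39 and 0.45. At least 1.5-fold higher in positive cells were 26 genes (2.18%), and at least 1.5-fold lower were 12 (1.01%). Only 2 were 2-fold higher and 3 were 2-fold lower. Which genes passed depended on the draw: with another random seed 24 passed as higher and 21 as lower, of which 10 and 9 were shared with the first draw. The genes named next are therefore given as values of 1 draw, most of them with less than 1 UMI per cell.

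**Figure D2:**
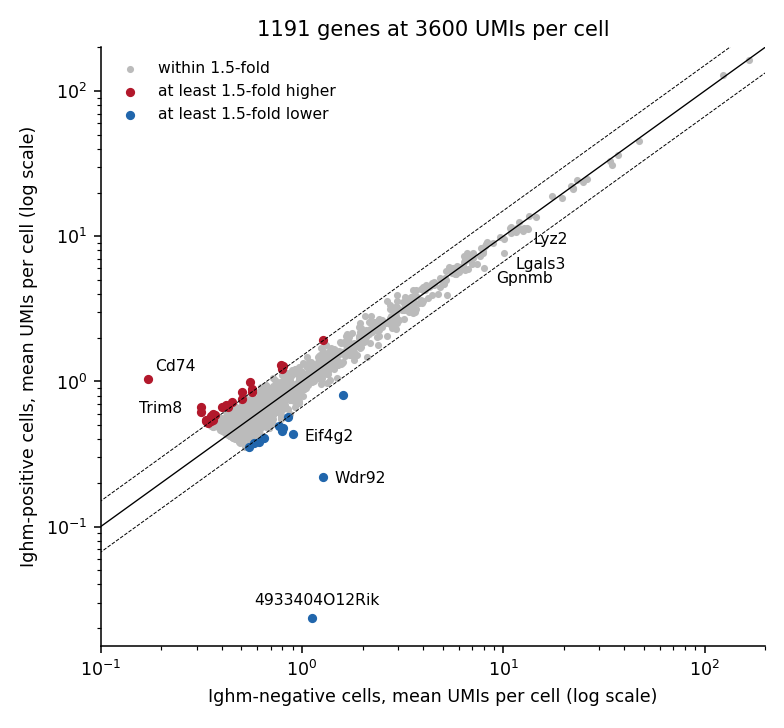
Mean UMIs per cell at 3600 UMIs in Ighm-negative (x axis) and Ighm-positive cells (y axis) of the untreated Rad21-/- sample, both on log scales, for 1191 genes. The solid line marks equal levels and the dashed lines 1.5-fold. The 26 genes above and the 12 below the dashed lines lie mostly under 1 UMI per cell, apart from Cd74 above and 4933404O12Rik and Wdr92 far below the line.

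Among the higher genes, Cd74 led by a wide margin (134 and 18 UMIs, log2 2.61) and is described with the MHC class II genes. Trim8, a ubiquitin ligase of cytokine and NF-κB signalling, followed with 85 UMIs in positive and 33 in negative cells, or 0.664 and 0.314 per cell, a log2 ratio of 1.08 (0.48 to 1.71). It was detected in 48.4% of positive and 28.6% of negative cells and was higher in positive cells in 6 of 7 pools. Within the positive cells its level was 0.636 with 1 Ighm UMI (0.443 to 0.885), 0.649 with 2 (0.416 to 0.965) and 0.722 with 3 or more (0.472 to 1.06), with intervals too wide to order them. Dync1h1, the heavy chain of cytoplasmic dynein, was at 0.617 and 0.314 UMIs per cell, log2 0.97 (0.37 to 1.61), but at -0.12 when cells were thinned to 5000 UMIs instead.

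Of the remaining 7 genes with the highest ratios, none belongs to the B lineage. Lat2, an adaptor of Fc and B cell receptor signalling that is also present in myeloid cells, was at 0.852 and 0.505 UMIs per cell, log2 0.75 (0.27 to 1.25). Mgst3, a glutathione transferase of the membrane, was at log2 0.73, Apaf1, the scaffold of the apoptosome, at 0.71, Bin1, a membrane-bending protein, at 0.71 and Zyx, zyxin of focal adhesions, at 0.71. Gm6030 (0.84) and Rps26-ps1 (0.72) are a predicted gene and a ribosomal pseudogene, whose counts are uncertain because near-identical copies share reads. All 26 kept a ratio of at least 1.5 when the cell with most UMIs of the gene was left out of each class. Leaving out a cell tends to take a larger share of the fewer UMIs of negative cells, and 31 genes then passed as higher. It therefore does not show that the 26 are stable, and with another seed 10 of them passed again.

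The lower genes began with 2 whose size rests on 1 negative cell. 4933404O12Rik had 3 UMIs in positive and 118 in negative cells, 112 of them in a single cell, and Wdr92, a co-chaperone subunit, had 28 and 133. Without the top cell of each class Wdr92 was at a log2 ratio of -0.06 and 4933404O12Rik, on few remaining UMIs, at -1.87. Without pool 2327AA Wdr92 was at -0.09 and 4933404O12Rik at -0.35. Eif4g2, a translation initiation factor that represses cap-dependent translation, was lower more broadly. It had 0.438 UMIs per positive cell and 0.905 per negative cell, a log2 ratio of -1.05 (-1.55 to -0.56), and was detected in 35.9% and 55.2% of cells. At 5000 UMIs its ratio was -0.55.

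Apbb1ip, an adaptor of Rap1 and integrin signalling, was at 0.477 and 0.810 UMIs per cell, log2 -0.76 (-1.26 to -0.27), detected in 34.4% and 57.1% of cells. Atf4, the factor of the integrated stress response, was at -0.67, the mitochondrial ribosomal protein gene Mrpl33 at -0.67, the potassium channel gene Kcnk2 at -0.63 and the cation channel gene Trpm3 at -0.82. Mir6236 (-0.99) and Gm5566 (-0.65) close the 10, and Mir6236 was at -0.41 without the top cell of each class. Of the 12 lower genes, 7, 4933404O12Rik among them, kept their place past 1.5-fold without the top cell of each class.

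The one gene group with a large difference was MHC class II, the molecules that present peptides to CD4 T cells and that B cells, dendritic cells and activated macrophages make. H2-Aa, H2-Ab1 and H2-Eb1 encode its chains and Cd74 the invariant chain that guards them. Over the 7 members in the matrix, of 10 listed, there were 283 UMIs in positive and 31 in negative cells, or 2.21 and 0.295 per cell, a log2 ratio of 2.90 (2.37 to 3.49). H2-Aa had 55 UMIs against 1, H2-Eb1 43 against 3 and H2-Ab1 32 against 2, while H2-DMb1, a chain of the peptide editor, had 16 against 5 and H2-DMa 3 against 2. Ciita, the master regulator of the pathway, was at 0 in both classes after thinning. H2-Aa and H2-Eb1 lie on chromosome 17 and were counted in the same few cells. Their promoters, from 250 bases before to 50 after the start, are shown from RefSeq (GRCm38.p6), in the direction of transcription, with the CCAAT box (CCAAT or ATTGG), an element by which class II promoters are known, in capitals.
H2-Aa (chr17:34287774-34288073, minus strand): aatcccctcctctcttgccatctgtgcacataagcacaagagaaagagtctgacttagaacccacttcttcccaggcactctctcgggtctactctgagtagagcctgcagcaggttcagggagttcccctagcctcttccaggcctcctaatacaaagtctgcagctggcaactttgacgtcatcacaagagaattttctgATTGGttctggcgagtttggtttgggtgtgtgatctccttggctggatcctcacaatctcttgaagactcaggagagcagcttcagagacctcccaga
H2-Eb1 (chr17:34305617-34305916, plus strand): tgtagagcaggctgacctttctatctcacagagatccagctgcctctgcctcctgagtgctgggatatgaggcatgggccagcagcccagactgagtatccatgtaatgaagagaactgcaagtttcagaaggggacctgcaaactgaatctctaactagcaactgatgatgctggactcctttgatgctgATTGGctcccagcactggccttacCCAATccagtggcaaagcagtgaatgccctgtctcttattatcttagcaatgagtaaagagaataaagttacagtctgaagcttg
The box occurs 1 time in the first and 2 times in the second, and 37.4% of 32851 promoters of this length hold it on either strand, so the match is a description of these sequences only.

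The MHC class II difference came from 6 cells. Before thinning, the cells with at least 10 UMIs of the list numbered 6 of 138 positive cells and 0 of 129 negative cells. Below the highest of them, whose counts are given next, the 5 others held 200, 135, 79, 43 and 18 such UMIs. The 6 cells held 91.2% of the 1029 in all positive cells, while no negative cell held more than 5. The 6 cells came from 5 pools. Of them, 5 held a single Ighm UMI and the cell with 43 held 4, so they sat at the low end of Ighm. By Ighm UMIs, the mean of the list per thinned cell was 0.295 at 0, 4.60 at 1 (4.05 to 5.2), 0.270 at 2 and 0.556 at 3 or more. The MHC class II level thus did not go with the amount of Ighm.

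The class II-high cells also held macrophage transcripts, at uneven levels. The highest, with 210 Cd74, 101 H2-Aa, 60 H2-Ab1 and 80 H2-Eb1 UMIs among 14061, also held 165 UMIs of Lyz2, 46 of Tyrobp and 17 of Cd68, and 2 of the B lineage list. Over the 6 cells Lyz2 ranged from 5 to 165 UMIs, Tyrobp from 4 to 46, Cd68 from 1 to 18 and Csf1r from 0 to 7. The macrophage list took 2.91 to 5.22% of their UMIs, against a median of 4.83% in positive and 5.10% in negative cells. In 5 of the 6 this share was under the positive median, and 2.91% was the lowest of all positive cells, the lowest negative cell having 1.97%. They held 0 to 6 B lineage UMIs each. Genes of the dendritic cell list gave 2 to 16 UMIs in each of the 6 cells, or 659.6 to 2419 CPM. Whether these cells held Flt3, Zbtb46 or Itgax, which are on that list, was not tested. Over all thinned cells the most abundant members of the list were Bst2, Tcf4 and Ccr9. The list was level between classes there, at 4.23 UMIs per positive and 4.25 per negative cell, a log2 ratio of -0.01 (-0.19 to 0.18).

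Without the 6 cells, 4 of which were deep enough for thinning, the list had 44 and 31 UMIs and a log2 ratio of 0.27 (-0.43 to 0.98). A UMI of the list was then found in 29.0% of positive (21.2 to 37.9%) and 22.9% of negative cells (15.2 to 32.1%), and Cd74 had 27 and 18 UMIs. In the other samples such cells were found in both classes, except at wild-type 8 h, where they were found in negative cells alone. Cells with at least 10 class II UMIs numbered 1 of 41 positive and 1 of 197 negative cells in wild-type untreated, 1 of 16 and 5 of 165 in wild-type 2 h, 0 of 20 and 7 of 233 in wild-type 8 h, 1 of 83 and 1 of 101 in Rad21-/- 2 h, and 4 of 93 and 1 of 129 in Rad21-/- 8 h. The list was at a log2 ratio of 0.61 (0.04 to 1.18) in Rad21-/- 8 h cells, and at -0.58 (-1.43 to 0.22) without such cells. It was at -0.12 in Rad21-/- 2 h cells and at -0.0085, -1.45 and -1.90 in wild-type cells, in order of time.

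**Figure D3:**
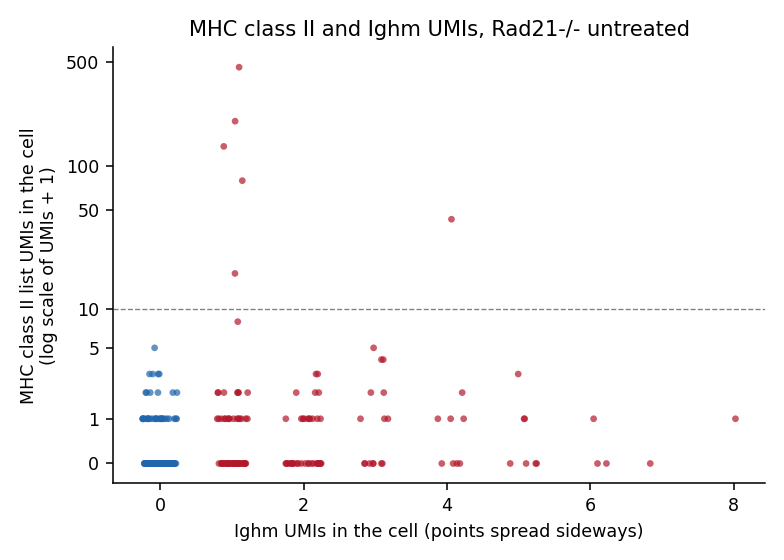
MHC class II list UMIs (y axis, log scale of UMIs + 1) against Ighm UMIs (x axis, points spread sideways) in each of 267 untreated Rad21-/- cells before thinning, with Ighm-negative cells in blue and Ighm-positive cells in red. The dashed line marks 10 class II UMIs. The 6 cells above it are all Ighm-positive, 5 of them with 1 Ighm UMI.

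Interferon-stimulated genes were slightly higher in positive cells. Their 32 members summed to 8.53 UMIs per positive and 7.35 per negative cell, a log2 ratio of 0.21 (0.08 to 0.35), with the higher level in positive cells in 5 of 7 pools. Without pool 2324AA the ratio was 0.08, and 0.07 when Ighm was called after thinning. Of the 3 most abundant members, Bst2, tetherin, was level at 2.35 and 2.38 UMIs per cell. Ifitm3, which blocks viral entry, was at 2.17 and 1.78, log2 0.29, and Isg15, a ubiquitin-like modifier, at 0.508 and 0.400, log2 0.34.

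Irf7, the interferon regulatory factor that amplifies type I interferon, missed the minimum by 1 UMI and was singled out after its values were seen. It had 71 UMIs in positive and 28 in negative cells, or 0.555 and 0.267 per cell, a log2 ratio of 1.06 (0.41 to 1.74), and was higher in positive cells in 6 of 7 pools. Its level was 0.267 without Ighm (0.177 to 0.385), 0.455 with 1 Ighm UMI (0.294 to 0.671), 0.405 with 2 (0.227 to 0.669) and 0.861 with 3 or more (0.585 to 1.22), the highest level standing in the cells with most Ighm. Irf9, another interferon regulatory factor, had 30 and 12 UMIs and Ifit3 had 13 and 3, while Oas2 had 3 and 7 and Cxcl10 had 0 and 8. The Irf7 levels all lay under the 1.76 Irf7 UMIs per wild-type untreated cell.

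The other lists differed little. The S and G2/M list, 40 genes of DNA replication and mitosis, was at a log2 ratio of 0.08 (-0.10 to 0.25), with H2afz, a histone variant, at 0.828 and 0.733 UMIs per cell, Tuba1b, a tubulin, at 0.680 and 0.552 and Pcna, the replication clamp, at 0.367 and 0.429. Its direction was not stable, since it turned to -0.18 without thinning and to -0.12 without pool 2326AA. The p53 target list was at 0.18 (-0.04 to 0.39), with 7 members higher and 12 lower in level. Its most abundant members Bax, which opens the mitochondrial membrane (0.875 and 0.638 UMIs per cell), Cdkn1a, the inhibitor p21 (0.719 and 0.543), and Sesn1, a sestrin (0.547 and 0.362), had log2 ratios of 0.46, 0.40 and 0.60, and Sesn1 was the only one of these 3 past 1.5-fold.

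Cohesin subunits and regulators were at -0.12 (-0.36 to 0.11) over 15 genes. Rad21 had 1 and 2 thinned UMIs, and 3 and 6 before thinning, too few to compare. Ctcf, which stops loop extrusion, was at 0.570 and 0.619 UMIs per cell, Stag1 at 0.383 and 0.362 and Nipbl, the loader, at 0.273 and 0.286. The NF-κB and acute inflammatory list was at 0.13 (-0.07 to 0.32), with the chemokine Ccl3 at 2.11 and 1.68 UMIs per cell, Sod2 at 0.367 and 0.371 and Nfkbia, the inhibitor of NF-κB, at 0.242 and 0.486. Immediate early and heat shock genes were at -0.17 (-0.42 to 0.07), with Hspa8 at 1.14 and 1.10, Hsp90aa1 at 0.234 and 0.333 and Junb at 0.156 and 0.171.

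Lists of further cell types were scarce in both classes, apart from the monocyte and dendritic cell lists, which were detected in nearly all cells. The T and NK cell list had 34 and 27 UMIs in all, led by Lck (9 and 11), Cd247 (13 and 6) and Klrb1c (5 and 3). The neutrophil and progenitor list had 14 and 21, all from Kit, with S100a8, Camp and Lcn2 at 0 after thinning. Of the erythroid, mast cell and stromal list, at 0.30 (-0.02 to 0.63), Pf4, a chemokine that macrophages also express, gave 174 of 203 UMIs in positive and 114 of 135 in negative cells, and Cpa3 had 7 and 11 and Itga2b 10 and 6. The monocyte list, found in 100% of positive and 99.0% of negative cells, was at 0.12 (0.00 to 0.23), with the calcium-binding proteins S100a4 at 6.94 and 6.43 UMIs per cell and S100a6 at 1.87 and 1.92. In the dendritic cell list, found in 93.8% and 96.2% of cells, beside Bst2 and Tcf4, Ccr9 had 36 and 42 UMIs.

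**Figure D4:**
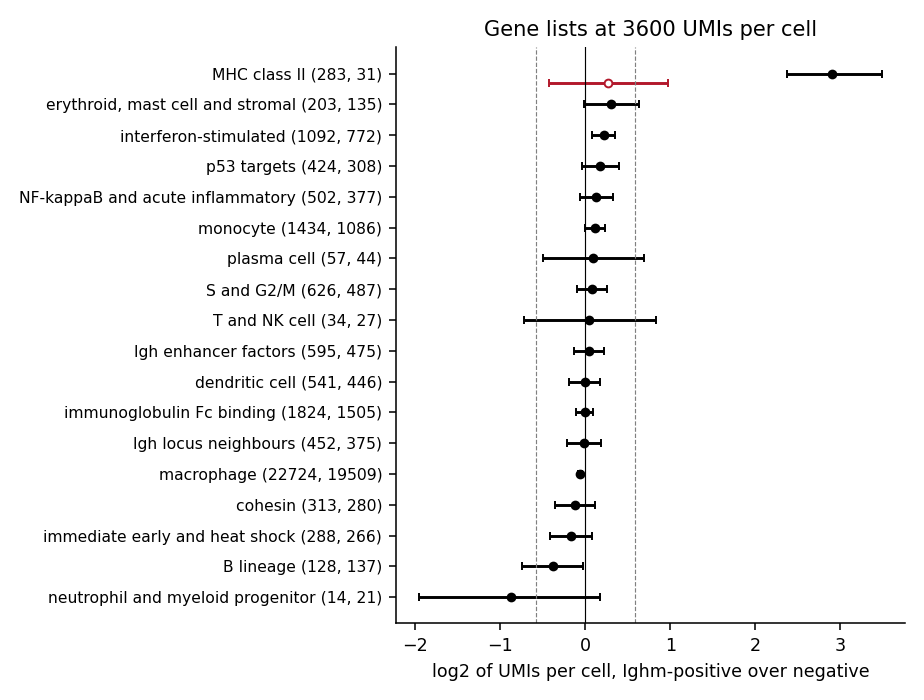
Log2 ratio of UMIs per cell in Ighm-positive over negative untreated Rad21-/- cells at 3600 UMIs (x axis) for 18 gene lists (y axis, with the list's UMIs in positive and negative cells in brackets), with exact conditional 95% intervals for counting error. Dashed lines mark 1.5-fold. MHC class II alone lies above it, at 2.90, and the open red point shows that list at 0.27 without the 6 cells of at least 10 class II UMIs. The neutrophil and myeloid progenitor list lies below the lower line on 35 UMIs in all.

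Over the 1191 compared genes, the neighbours of positive cells were positive little more often than those of negative cells. On 10 principal components of 1191 genes without Ighm, which held 17.7% of the variance, the 15 nearest neighbours of a positive cell were positive in 57.0% of cases on average and those of a negative cell in 53.8%, around a share of 54.9% among all 233 cells. The difference of 3.14 points ranged from -1.10 to 5.57 over the alternatives, pools left out included. The components were not corrected for library pool, and the part of pool in these shares was not tested. On single components the class means differed by 0.02 to 0.43 pooled standard deviations, most on component 7. The genes with the largest loadings there were mitochondrial transcripts such as mt-Nd4 and mt-Co1 and predicted genes such as Gm10801 on the side of positive cells, and Braf and Lamp1 among those on the other.

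The same split in the other 5 samples, at 3600 UMIs per cell, put few of the higher genes past 1.5-fold again. Of the 26 genes higher here, 18 had a ratio above 1 in Rad21-/- cells at 2 h and 17 at 8 h, against 56.2% and 58.7% of all compared genes, and 11, 12 and 7 in wild-type cells untreated, at 2 h and at 8 h, against 43.9%, 51.2% and 48.7%. At least 1.5-fold higher were 3 and 2 of the 26 in the Rad21-/- LPS samples, where 2.44% and 5.12% of all 1191 genes were. Of the 12 lower genes, 7 had a ratio below 1 in each Rad21-/- LPS sample, against 43.6% and 41.3% of all compared genes. In wild-type cells 7, 8 and 9 of the 12 did, in order of time, against 56%, 47.9% and 51.3%. Trim8 was at log2 0.06 (-0.78 to 0.89) in Rad21-/- cells at 2 h and at -0.15 (-0.91 to 0.58) in those at 8 h. The 3 wild-type samples held 38, 15 and 18 positive cells, so their values are coarse.

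Lgals3 and Gpnmb, in contrast, were lower in positive cells in every Rad21-/- sample. Lgals3 was at 6.82 UMIs per positive and 9.19 per negative cell at 2 h, log2 -0.43 (-0.60 to -0.27), and at 4.32 and 6.12 at 8 h, log2 -0.50 (-0.68 to -0.32). Gpnmb was at 6.14 and 8.94 at 2 h, log2 -0.54 (-0.72 to -0.37), and at 4.53 and 5.70 at 8 h, log2 -0.33 (-0.51 to -0.15). In wild-type cells Lgals3 was at -0.15 (-0.28 to -0.03) untreated, -0.08 (-0.28 to 0.10) at 2 h and -0.19 (-0.45 to 0.05) at 8 h. Gpnmb was at -0.15 (-0.33 to 0.02), -0.14 (-0.41 to 0.13) and 0.21 (-0.10 to 0.52) in the same order. The Lgals3 interval thus lay below 0 in wild-type untreated cells too. Whether the wild-type values differ from the Rad21-/- values was not tested.

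Irf7 was at 0.41 (-0.48 to 1.30) and 0.10 (-0.26 to 0.46) in Rad21-/- cells at 2 h and 8 h, and at -0.08, 0.36 and -0.19 in wild-type cells. The interferon-stimulated list was at 0.18 (0.06 to 0.31) in Rad21-/- cells at 2 h but at -0.11 (-0.18 to -0.05) at 8 h. The small macrophage list deficit was also seen in Rad21-/- cells at 2 h, at -0.10 (-0.14 to -0.07). In wild-type cells it was at -0.08 (-0.12 to -0.04) untreated and -0.11 (-0.17 to -0.05) at 2 h. At 8 h that list was at -0.02 (-0.06 to 0.01) in Rad21-/- and 0.02 (-0.05 to 0.08) in wild-type cells. The B lineage list was at 0.10 (-0.27 to 0.48) and -0.04 (-0.50 to 0.40) in the LPS samples of Rad21-/- cells, and at -0.31, -0.30 and -0.27 in wild-type cells, in order of time, each with an interval that includes 0.

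**Figure D5:**
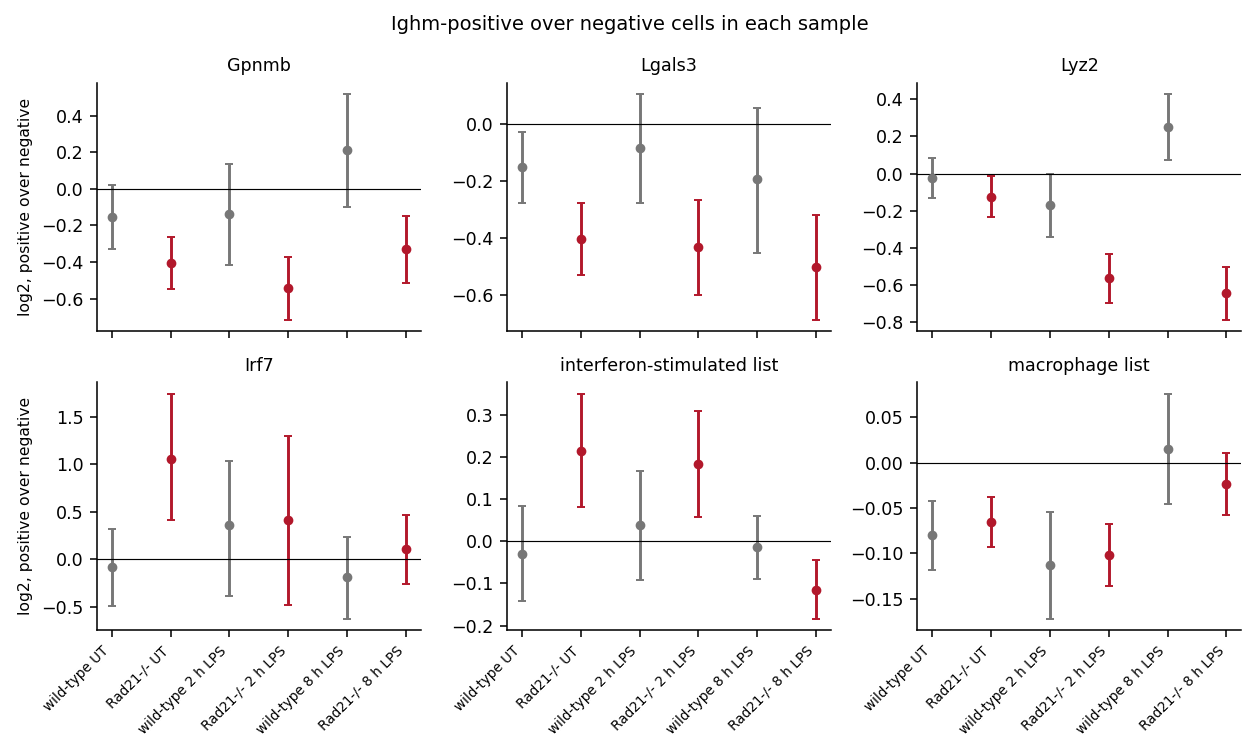
Log2 ratio of UMIs per cell in Ighm-positive over negative cells (y axes, each with its own range) in each of the 6 samples (x axis, UT for untreated, red for Rad21-/-, grey for wild-type), with exact conditional 95% intervals for counting error, for 4 genes and 2 gene lists. Gpnmb and Lgals3 lie below 0 with their intervals in all 3 Rad21-/- samples, and Lgals3 does so in the wild-type untreated sample too. Irf7 has its interval above 0 in the untreated Rad21-/- sample alone.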

How the data were processed

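The deposited table holds UMI counts per gene and cell of 6 MARS-seq samples, 18429 genes by 1362 cells. The authors mapped reads with GEMTools to GRCm38.p4 with Gencode annotation, discarded wells by spike-in, mapped and total reads, kept reads assigned to 1 gene and collapsed UMIs, and deposited the counts without normalization. Every cell was assigned to its sample and library pool by its name, and 0 columns were left over. Reads shared by near-identical genes were dropped, so counts of pseudogenes and their parents are uncertain.

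Ratios are of UMIs per cell after Ighm was removed and each cell was thinned without replacement to 3600 UMIs. Cells with fewer were left out, 10 positive and 24 negative. Genes were compared from 100 thinned UMIs over both classes, and a gene counts as higher or lower at 1.5-fold. Shares carry exact Clopper-Pearson intervals, means exact Poisson intervals and ratios of UMIs per cell exact conditional binomial intervals, at 95%. Medians of UMIs carry intervals from the ranked cells, and the range of their ratio divides opposite ends of these. Count steps were tested on simulated data. Python 3.11.15, numpy 2.4.6, pandas 2.3.3, scipy 1.17.1 and matplotlib 3.10.9 were used. Of the gene symbols, 16122 matched the RefSeq table (GRCm38.p6).

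The members, lists and comparisons were chosen with earlier results of these data known. Named were each B lineage gene with a UMI, the 10 highest and 10 lowest ratios, and of each other list the 3 most abundant members and any compared member past 1.5-fold. Wells over 25000 UMIs, which may hold more than 1 cell, were left out of the main comparisons, and no doublet caller was run. Alternatives were another depth, no thinning, another seed, other Ighm limits, weights for pool and depth, and wells over 25000 UMIs kept. Further ones were each pool left out, and other gene limits, neighbour numbers and components. Leaving out single cells was added after the data were seen.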

Additional observations from a re-analysis of the deposited data

Results flagged for a closer look

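The share of Ighm-positive cells was 18.2% in pool 2325AA (4 of 22 cells, exact binomial interval 5.19 to 40.3%), apart from the other untreated Rad21-/- pools, which lay between 43.3% and 64.3%. Its gap to the nearest pool was 0.545 of the whole range over 8 pools, past the limit of Dixon's outlier rule. That limit is set for values of equal spread, while these shares rest on 19 to 48 cells, so no level of chance is given. The pools are libraries of 1 sample and not samples of their own. This pool was also the shallowest, with a median of 3584 UMIs per Rad21-/- cell, and 0 of its 24 wild-type cells held Ighm. The part of depth in this share was not tested.

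The 3 untreated Rad21-/- wells with more than 25000 UMIs all held Ighm. They were left out of the main comparisons and kept only as an alternative, which gave 22 higher and 13 lower genes. They had 11, 15 and 19 UMIs of it among 173674 in all, or 259.1 CPM (189 to 347), against 43.6 CPM in wild-type untreated cells and 176 CPM in the 267 Rad21-/- cells of the report. Whether such wells hold 1 cell or several was not tested.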

How the results depend on the processing

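Counts of genes past the limit depended most on the settings. Against 26 higher and 12 lower genes, the larger thinning depth gave 16 higher, all UMIs without thinning gave 60 higher and 41 lower among 2734 genes, and another seed gave 21 lower. Positive cells of at least 2 Ighm UMIs gave 14 higher, and Ighm called after thinning gave 16 higher. A minimum of 50 UMIs gave 139 and 113, no minimum gave 3329 and 3246 among 15842 genes, and a 2-fold limit gave 2 and 3. With a pool left out the counts ran from 17 to 26 higher and from 7 to 16 lower, both lowest without pool 2327AA. Some of these alternatives test fewer or rarer genes, and otherwise the cause was not tested.

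The MHC class II ratio was 3.79 at the larger depth and 3.87 without thinning. It was 0.48 for cells of at least 2 Ighm UMIs, 0.41 with Ighm called after thinning and 0.27 without cells of at least 10 class II UMIs. With a pool left out it was 2.40 to 3.19. The macrophage ratio was -0.024 without thinning, -0.036 with negative cells weighted to the depth of positive cells, and -0.08 to -0.06 with a pool left out. The S and G2/M ratio was -0.18 without thinning, -0.15 at 2 Ighm UMIs or more, -0.10 with depth weights, and -0.12 to 0.24 with a pool left out. The interferon-stimulated ratio was 0.071 with Ighm called after thinning and 0.079 to 0.30 with a pool left out. The B lineage ratio kept its sign under 9 alternatives (-0.49 to -0.11) and with each pool left out (-0.51 to -0.27). The ratio of median UMIs ran from 1.13 to 1.30, and the difference in neighbour share from 1.24 to 5.57 points, with a pool left out. Weights could not be applied to neighbours.

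Of 408 values for 24 named genes, 393 stayed within the counting interval and 1 reversed, Dync1h1 at -0.12 at the larger depth. This does not show that the genes are stable, since most were picked for extreme ratios and the intervals are wide. With another seed Apaf1, at 0.28, lay within its interval (0.13 to 1.32) but short of the fold limit. That seed kept 10 of the 26 higher and 9 of the 12 lower genes past the limit. No paired analysis was possible because each group is 1 sample and no result comes from a test. The 1 to 8 Ighm UMIs of a positive cell limit how far a negative cell can be told from one.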

Other observations

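In the Rad21-/- samples that had received LPS, Ighm-positive cells held fewer transcripts of several inflammatory genes than negative cells at 3600 UMIs per cell. The NF-κB and acute inflammatory list was at a log2 ratio of -0.33 (-0.39 to -0.27) at 2 h and -0.35 (-0.40 to -0.31) at 8 h, against 0.13 in untreated Rad21-/- cells and -0.01, -0.03 and 0.04 in wild-type cells untreated, at 2 h and at 8 h. Cxcl2, a neutrophil chemokine, was at 4.19 UMIs per positive and 7.37 per negative cell at 2 h and at 3.94 and 7.54 at 8 h. It was lower in positive wild-type cells too, at log2 -0.24 (-0.45 to -0.05) at 2 h and -0.60 (-0.96 to -0.26) at 8 h, against -0.81 and -0.94 in the Rad21-/- samples. Tnf was at 3.10 and 4.73, then 2.34 and 3.29, and Ccl5 at 0.917 and 1.46, then 13.7 and 20.0. Il1b moved with them at 2 h (1.21 and 2.06) but not at 8 h (6.43 and 5.63). Lyz2, lysozyme, was at 10.0 and 14.8 at 2 h and 6.80 and 10.6 at 8 h, log2 ratios of -0.57 and -0.64, against -0.12 in the untreated sample. Unlike Cxcl2, these other genes were not lower throughout in positive wild-type cells. There Tnf was at log2 0.23 (0.007 to 0.45) at 2 h and 0.16 (-0.28 to 0.57) at 8 h. Ccl5 was at 0.35 (-0.08 to 0.76) and -0.004, Il1b at 0.07 and -0.13, and Lyz2 at -0.17 (-0.34 to -0.003) and 0.25 (0.07 to 0.43). Each genotype and time point is 1 sample, the genes were picked with other results of these data known, and the difference between samples was not tested.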
